A study of Mus musculus with 12 samples.

Results

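The genes described here are 40 genes of collagens, matrix proteins and stromal cells, taken by gene name from the array annotation and read through every non-control probe that carried one of these names. They had 56 probes of 55651 on the array, 27 genes with 1 probe and 13 genes with several. The rule uses gene names and no measured value, although the list was drawn up with earlier results of these data known.

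RNA from 12 samples was hybridised to one-colour Agilent arrays, 3 in each of 4 groups. The op/op kidney samples were cells sorted with magnetic beads for the myeloid surface proteins CD11b and CD11c from homozygous mice of strain B6C3Fe a/a-Csf1op/J, whose op mutation lies in Csf1, the gene of the growth factor M-CSF. The WT kidney samples were sorted in the same way from wild-type mice of that strain, and both genotypes had received 80 mg/kg glyoxylate for 6 days, so no kidney group was untreated. The M1 samples were bone marrow derived macrophages stimulated ex vivo with LPS and GM-CSF, and the M2 samples were the same kind of culture stimulated with IL-4 and M-CSF. Both carry the strain label B6C3Fe a/a-Csf1op/J, their genotype at Csf1 is not in the labels, and no unstimulated culture was among the samples. The age of the mice is not in the labels, and nothing in them ties a replicate to its own animal or culture. The p-values therefore cover the spread among these samples, which can be technical.

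Connective tissue matrix is made mainly by fibroblasts, pericytes and smooth muscle cells. Fibrillar collagens form its tensile fibres, lysyl oxidases cross-link them, and small proteoglycans bind their surface, while type IV collagen builds the basement membrane under tubules and capillaries of the kidney. Kidney fibrosis is the accumulation of such matrix, and bone marrow also holds stromal cells that adhere to culture dishes.

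Values are log2 signals after scaling, where 0 stands for the 75th percentile of that array. Differences are given as the estimate ± SE of a limma fit on the log2 scale, with Benjamini-Hochberg adjustment over all probes tested in that comparison, and a probe was called at an adjusted p under 0.05. Levels of different probes are not compared, since probes differ in brightness. Feature Extraction marks signals that are well above background, and the share of such probes was 63.0% to 68.7% on op/op arrays, 76.1% to 79.3% on WT arrays, 72.5% to 75.1% on M1 arrays and 64.3% to 65.0% on M2 arrays. WT replicate 1 was alone on a slide, the other 5 kidney arrays shared another and the 6 bone marrow arrays the last, so slide and tissue cannot be told apart. WT and M1 arrays lay in the upper row of the slides and op/op and M2 arrays in the lower row, so the position also cannot be told apart from these groups. Macrophage markers were well above background in every group (10 of 10 genes on all op/op and all WT arrays, 9 of 10 on all M1 and all M2 arrays), and the kidney arrays also carried markers of tubule, endothelium and podocytes.

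The probes printed here are 60-base probes of members, chosen to show each pattern and not always those with the largest differences. The patterns are fibre collagen and cross-linking enzyme (high in marrow cultures) and matricellular protein (above background in marrow cultures alone). The others are kidney-side genes, and genes that separated M1 from M2 or whose probes differed. The call of the printed Col15a1 probe between kidney and marrow was lost in a fit with slide as a random block. The printed Loxl2 probe was lower in kidney than in marrow cells, while the brightest Loxl2 probe was higher. Sequences are those of the files' annotation, 5′ to 3′, with mm9 coordinates, and the Tnc and Des probes span more than 60 bases of genome and so are split in the genome.
Col1a2, chr6:4490619-4490678, plus strand: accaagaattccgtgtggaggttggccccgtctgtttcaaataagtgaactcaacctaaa
Col15a1, chr4:47283786-47283845, plus strand: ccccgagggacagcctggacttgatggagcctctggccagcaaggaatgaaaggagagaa
Bgn, chrX:70738554-70738613, plus strand: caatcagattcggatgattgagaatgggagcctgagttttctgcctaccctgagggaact
Vcan, chr13:89851810-89851869, minus strand: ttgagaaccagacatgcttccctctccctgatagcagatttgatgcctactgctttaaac
Tnc, chr4:63674248-63675011, minus strand: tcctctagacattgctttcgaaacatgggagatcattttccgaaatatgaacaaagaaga
Loxl2, chr14:70090017-70090076, plus strand: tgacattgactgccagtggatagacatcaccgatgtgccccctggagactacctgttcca
Des, chr1:75363404-75363629, plus strand: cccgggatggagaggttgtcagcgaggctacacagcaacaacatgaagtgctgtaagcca
S100a4, chr3:90409734-90409793, plus strand: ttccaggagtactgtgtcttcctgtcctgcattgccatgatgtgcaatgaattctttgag
The basement membrane genes Col4a1 and Col4a2 lie head to head, and their RefSeq promoter windows (GRCm38.p6, 300 bases around the start) overlap by 78 bases of opposite strands. They are shown because both genes were higher in kidney than in marrow cells and in M1 than in M2 cells. Capitals mark CCAAT, or ATTGG where it stands on the opposite strand, each printed 5′ to 3′ on the gene's strand.
Col4a1, chr8:11312777-11313076, minus strand: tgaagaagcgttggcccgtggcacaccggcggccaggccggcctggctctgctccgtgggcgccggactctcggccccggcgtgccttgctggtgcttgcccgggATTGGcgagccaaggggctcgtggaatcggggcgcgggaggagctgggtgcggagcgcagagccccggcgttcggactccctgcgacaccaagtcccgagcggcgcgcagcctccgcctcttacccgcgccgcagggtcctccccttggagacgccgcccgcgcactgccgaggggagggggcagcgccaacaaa
Col4a2, chr8:11312555-11312854, plus strand: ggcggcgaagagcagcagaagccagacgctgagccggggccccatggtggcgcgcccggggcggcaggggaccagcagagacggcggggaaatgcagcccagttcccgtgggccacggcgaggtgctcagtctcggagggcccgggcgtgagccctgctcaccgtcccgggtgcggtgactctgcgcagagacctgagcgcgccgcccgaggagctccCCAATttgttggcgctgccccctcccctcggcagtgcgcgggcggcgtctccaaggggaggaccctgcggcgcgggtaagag
CCAAT on either strand was found in 10 of 32 member windows (31.2%), against 37.4% of all 32851 windows in the table, and GGGCGG in 50% against 35.7%. A RefSeq window was found for 27 of the 40 genes. A match is a stretch of letters and not a binding site.

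The first comparison sets kidney sorted cells against bone marrow cultures. Fibrillar collagens, matricellular proteins and most lysyl oxidase and proteoglycan probes were lower in the kidney cells, and collagens IV, XV and XVIII, elastin, desmin, Fmod, Cspg4 and Pdgfrb were higher. Of 55 tested probes of the 40 genes, 15 were called higher in kidney (27.3%) and 37 lower (67.3%), while 46.9% of all 42920 tested probes were higher and 32.8% lower. The median difference was -1.88 over the member probes and 0.31 over all tested probes. Genes of olfactory receptors, read as a set outside the members, had a median difference of 1.35 over 213 probes above background on every array. Col4a2 (1.61), Cspg4 (1.48), Pdgfrb (1.41) and the brightest Col12a1 probe (1.35) lay near that value. The brightest probes of Loxl2 (0.67) and Col15a1 (0.66) lay below it. The part of such an offset was not tested. Of the 29 probes well above background on all 12 arrays, 8 were higher and 20 lower. In a fit of only such probes, 13375 of all 28651 were higher and 10312 lower. The other member probes passed because at least 1 group was bright enough, which fixes part of their direction. With slide as a random block 41 of the 52 calls remained. In bulk samples, fewer cells of a type and less RNA per cell cannot be told apart.

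The median of all probes in this comparison moved to -0.02 under quantile normalisation, where all calls split into 16087 higher and 16837 lower, against 20128 higher and 14080 lower. In all, 12 genes had a called higher probe and 29 a called lower one, 2 of them both. Slide was treated as a random block in a second fit, in which 41 of the 52 calls remained.

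**Figure D1:**
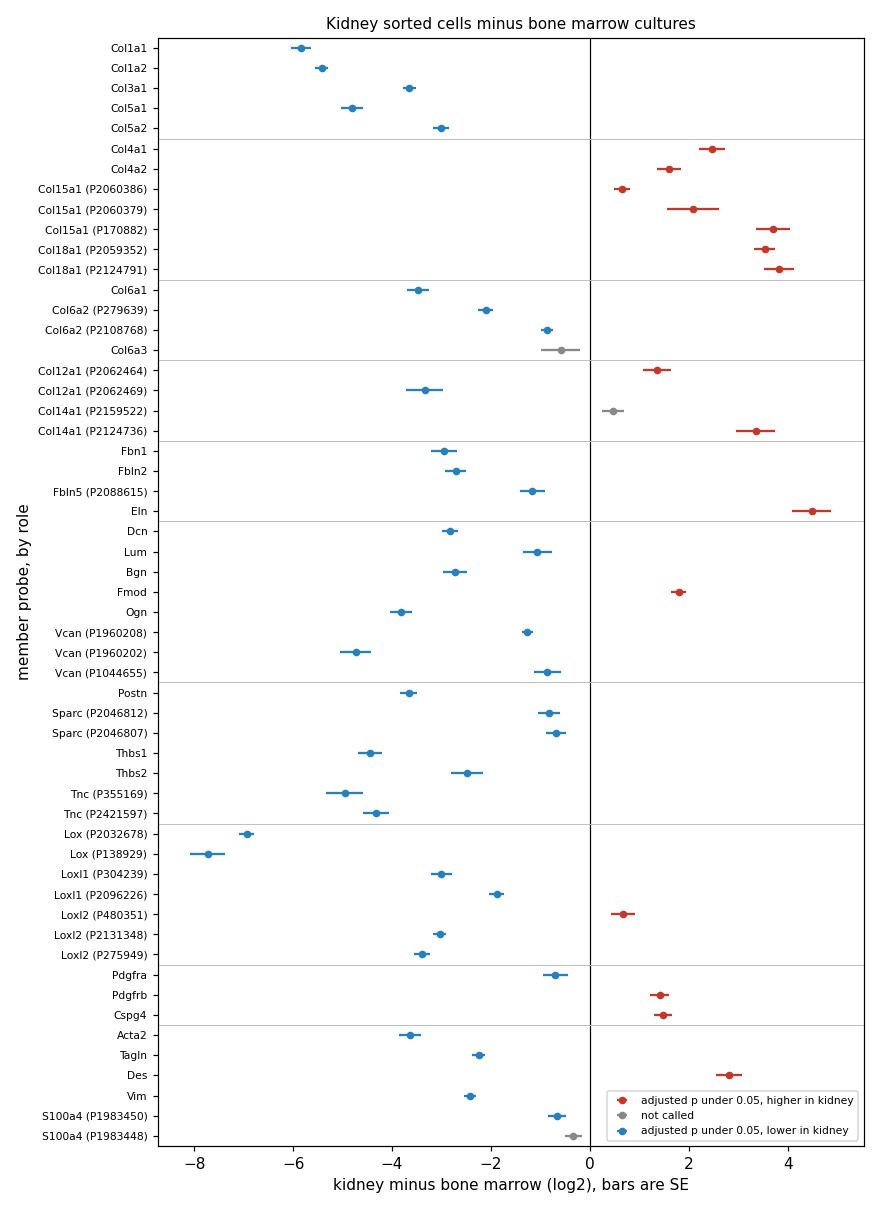
Kidney minus bone marrow difference (log2, horizontal axis) of each tested member probe, grouped by role, with bars for the SE of the limma fit. Red points were called higher in kidney, blue points lower and grey points were not called. The Lox probes lie at -6.94 and -7.73 and Eln at 4.49.

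Fibrillar collagens, which form the fibres of tendon, skin and scar, were lower in kidney cells for 5 of 5 genes. Col1a1, a chain of type I collagen, was at -1.96, -2.96 and -2.71 on op/op arrays, -1.61, -1.33 and -1.71 on WT arrays, 4.27, 4.44 and 3.61 on M1 arrays and 3.28, 3.75 and 3.43 on M2 arrays. Every kidney array lay below every marrow array, 57.3-fold on average (-5.84 ± 0.20, adjusted p = 3.49e-09). Col1a2, the other type I chain, was at 0.06, -0.14 and 0.25 on op/op arrays, 0.22, 0.68 and 0.41 on WT arrays, 5.95, 6.12 and 5.64 on M1 arrays and 5.38, 5.55 and 5.36 on M2 arrays. Kidney arrays again lay below all marrow arrays (-5.42 ± 0.13, adjusted p = 3.67e-10). Col3a1, the collagen of soft and healing tissue, was at -2.25, -2.19 and -2.35 on op/op arrays, -1.66, -1.18 and -1.42 on WT arrays, 3.05, 2.95 and 2.56 on M1 arrays and 0.58, 0.97 and 0.76 on M2 arrays. It was lower in the same way (-3.65 ± 0.14, adjusted p = 5.39e-09). Col5a1, the collagen that starts fibrils, was at -1.74, -1.35 and -0.47 on op/op arrays, -0.98, -1.82 and -1.37 on WT arrays, 4.20, 4.34 and 3.73 on M1 arrays and 2.83, 3.16 and 2.91 on M2 arrays (-4.82 ± 0.22, adjusted p = 1.72e-08). Col5a2, the partner chain, was well above background on no kidney array and at -2.50, -2.32 and -2.92 on M1 arrays and -3.86, -3.56 and -3.24 on M2 arrays, at least 1.72-fold lower in kidney against each array's lowest signal well above background, but with a floor at the 10th percentile of such signals on each array no bound remained and it was not called (-0.21, adjusted p = 0.148).

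Lysyl oxidases, the copper enzymes that cross-link collagen and elastin, included the gene with the largest member difference, Lox. It was at -2.70, -3.30 and -3.38 on op/op arrays, -2.89, -2.63 and -2.55 on WT arrays, 4.06, 4.29 and 3.82 on M1 arrays and 3.85, 4.17 and 4.02 on M2 arrays (-6.94 ± 0.15, adjusted p = 2.17e-10). Kidney and marrow arrays did not overlap on its brightest probe, and the other Lox probe, above background on 1 of 6 kidney arrays, differed by -7.73 ± 0.35. Loxl1 differed by -3.00 ± 0.22, adjusted p = 2.47e-07 on its brightest probe. The 3 Loxl2 probes disagreed: the brightest (0.67 ± 0.25, adjusted p = 0.0254) was higher in kidney, and the others were lower (-3.04 ± 0.13, adjusted p = 1.05e-08 and -3.39 ± 0.16, adjusted p = 2.13e-08). The rise of the brightest probe was lost with slide as a random block (adjusted p = 0.311).

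Matricellular proteins, secreted modulators of cell contact, were lower in kidney for all 7 probes of 5 genes. Tnc, a tenascin of wounds and embryonic stroma, was at 0.76, 1.07 and 0.70 on M1 arrays and -1.03, -0.43 and -0.62 on M2 arrays. No kidney array had it well above background, so it was at least 15.1-fold lower in kidney (adjusted p = 3.61e-07), or at least 8.78-fold against the 10th percentile. Postn, periostin, was likewise below that limit in kidney and at -1.90, -1.89 and -2.65 on M1 arrays and -2.41, -2.08 and -2.50 on M2 arrays, at least 3.05-fold lower in kidney (1.77-fold against the 10th percentile). Thbs1, a thrombospondin that activates TGF-beta, was at -0.34, 0.02 and -0.84 on op/op arrays, 3.13, 2.88 and 1.62 on WT arrays, 6.41, 6.15 and 6.38 on M1 arrays and 4.67, 4.81 and 4.74 on M2 arrays. It was lower in kidney (-4.45 ± 0.24, adjusted p = 4.24e-08), and WT arrays lay between op/op and marrow arrays. Thbs2, a related thrombospondin, was lower too (-2.48 ± 0.32, adjusted p = 1.9e-05). Sparc, a collagen-binding glycoprotein, was at 2.86, 3.68 and 4.01 on op/op arrays, 3.61, 2.86 and 3.84 on WT arrays, 4.80, 4.79 and 4.39 on M1 arrays and 3.85, 4.10 and 3.90 on M2 arrays. Its kidney and marrow arrays overlapped, and its call (-0.83 ± 0.22, adjusted p = 0.00414) was lost with slide as a random block (adjusted p = 0.107).

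Proteoglycans fell into a larger lower group and Fmod. Dcn, which coats collagen fibrils, was at -1.31, -1.69 and -1.48 on op/op arrays, -1.32, -2.20 and -1.54 on WT arrays, 2.82, 2.91 and 2.76 on M1 arrays and -0.52, -0.19 and -0.37 on M2 arrays. M1 arrays lay above all others, and kidney was lower than marrow (-2.83 ± 0.16, adjusted p = 4.73e-08). Bgn, a proteoglycan of bone and vessel wall, was at 0.90, 1.82 and 2.42 on op/op arrays, 1.54, 0.72 and 1.61 on WT arrays, 4.51, 4.75 and 4.62 on M1 arrays and 3.59, 4.0 and 3.91 on M2 arrays (-2.73 ± 0.24, adjusted p = 1.14e-06). Ogn, osteoglycin, was well above background on no op/op array and at -3.01, -4.41 and -3.89 on WT arrays, -1.53, -1.77 and -1.72 on M1 arrays and -0.20, 0.37 and 0.27 on M2 arrays (-3.82 ± 0.22, adjusted p = 5.42e-08). Fmod, fibromodulin, ran the other way, at 1.71, 1.22 and 1.26 on op/op arrays, 0.59, 0.55 and 0.73 on WT arrays, -0.72, -0.76 and -1.22 on M1 arrays and -0.53, -0.44 and -1.06 on M2 arrays (1.80 ± 0.16, adjusted p = 8.68e-07). Vcan, a large proteoglycan of loose matrix, was lower in kidney on its brightest probe, at 1.80, 1.57 and 1.64 on op/op arrays, 0.78, 0.90 and 1.13 on WT arrays, 3.21, 3.40 and 3.07 on M1 arrays and 1.80, 2.01 and 1.91 on M2 arrays (-1.26 ± 0.12, adjusted p = 1.29e-06). Lum was above background on M1 arrays alone, and its kidney minus marrow difference of -1.06 became 0.17 with normexp background correction, so no direction is given for it between the tissues.

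The basement membrane collagens ran the other way, with all 7 probes of 4 genes higher in kidney, 5 of them also with slide as a random block. Col4a1, a main chain of basement membrane, was at 1.06, 1.94 and 2.55 on op/op arrays, 1.88, 0.76 and 1.93 on WT arrays, -0.03, 0.05 and 0.21 on M1 arrays and -1.95, -1.48 and -1.47 on M2 arrays. Every kidney array lay above every marrow array (2.47 ± 0.27, adjusted p = 4.97e-06). Col4a2, its partner chain, was at 1.41, 2.12 and 2.94 on op/op arrays, 2.12, 1.26 and 1.96 on WT arrays, 1.29, 1.35 and 1.37 on M1 arrays and -0.94, -0.57 and -0.35 on M2 arrays (1.61 ± 0.24, adjusted p = 7.34e-05), and here the kidney and M1 arrays overlapped. Col18a1, whose fragment is endostatin, was at -1.35, -1.11 and -0.85 on op/op arrays, -0.23, -1.02 and -0.42 on WT arrays, -3.66, -3.74 and -3.23 on M1 arrays and -5.25, -5.77 and -4.55 on M2 arrays. No M2 array had it above background, and kidney was higher (3.54 ± 0.22, adjusted p = 9.3e-08). Eln, elastin, was at -0.27, 0.08 and 0.24 on op/op arrays, 0.41, -0.31 and 0.79 on WT arrays, -4.91, -4.24 and -3.36 on M1 arrays and -3.53, -4.03 and -5.94 on M2 arrays and above background on 3 of 6 marrow arrays. Its difference was the largest upward one among the members (4.49 ± 0.40, adjusted p = 1.04e-06), and the tissues did not overlap. The microfibril protein Fbn1 (-2.96 ± 0.26, adjusted p = 1.04e-06) and the fibulins Fbln2 (-2.71 ± 0.22, adjusted p = 5.27e-07) and Fbln5 (-1.16 ± 0.25, adjusted p = 0.00118) were lower in kidney instead, the last of them not called with slide as a random block (adjusted p = 0.0607). The other Fbln5 probe was above background on no array and was not tested. Col15a1, a collagen at the outer face of basement membranes, was higher on all 3 probes, between 0.66 and 3.71, and the probe with 3.71 was above background on no marrow array (at least 4.61-fold higher in kidney, or 2.52-fold against the 10th percentile). The calls of the other 2 probes were lost with slide as a random block (adjusted p = 0.0828 and 0.0806), and the difference of 0.66 became 0.088 with quantile normalisation (adjusted p = 0.627).

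Among collagen VI genes, Col6a1 was lower in kidney, at -2.75, -2.77 and -2.79 on op/op arrays, -2.20, -3.29 and -2.12 on WT arrays, 1.17, 0.51 and 0.43 on M1 arrays and 0.64, 1.05 and 1.13 on M2 arrays (-3.47 ± 0.22, adjusted p = 9.66e-08). Of the other collagen VI genes, Col6a2 was lower on its brightest probe (-2.11 ± 0.15, adjusted p = 2.37e-07) and Col6a3 was not called (-0.59 ± 0.40, adjusted p = 0.188). Of the fibril-associated genes, Col12a1 had probes that disagreed. The brightest was at 3.22, 2.78 and 2.54 on op/op arrays and 0.54, 1.34 and 2.25 on WT arrays. On M1 arrays it was at 0.67, 1.09 and 0.63, and on M2 arrays at 1.24, 0.80 and 0.15. It was higher in kidney (1.35 ± 0.28, adjusted p = 0.000842, lost with slide as a random block, adjusted p = 0.0512). The other was lower (-3.34 ± 0.38, adjusted p = 7.03e-06). Of the Col14a1 probes, the brightest was not called (0.47 ± 0.22, adjusted p = 0.0661). The other was called higher in kidney (adjusted p = 1.05e-05) and was above background on no marrow array. It was at least 2.30-fold higher, or 1.26-fold against the 10th percentile.

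Contractile and cytoskeletal genes were mostly lower in kidney. Acta2, smooth muscle actin, was at 0.84, 1.02 and 0.63 on op/op arrays, 2.78, 1.67 and 2.93 on WT arrays, 5.13, 5.16 and 4.45 on M1 arrays and 5.52, 5.79 and 5.63 on M2 arrays (-3.64 ± 0.22, adjusted p = 8.28e-08). Tagln, transgelin of smooth muscle, was lower in kidney too (-2.24 ± 0.13, adjusted p = 6.49e-08). Vim, the intermediate filament of mesenchymal cells and macrophages, was at 3.29, 3.31 and 2.91 on op/op arrays, 3.83, 4.21 and 3.88 on WT arrays, 5.99, 5.75 and 5.97 on M1 arrays and 6.14, 6.09 and 6.05 on M2 arrays (-2.43 ± 0.12, adjusted p = 2.78e-08). S100a4, a calcium-binding protein of fibroblasts and macrophages, overlapped between tissues, and its 2 probes differed in call. Des, desmin of muscle and pericytes, was at -1.18, -0.29 and 0.45 on op/op arrays, -0.16, -1.20 and -0.40 on WT arrays, -3.51, -3.51 and -3.44 on M1 arrays and -3.32, -2.97 and -2.93 on M2 arrays, and was higher in kidney (2.82 ± 0.26, adjusted p = 1.4e-06). Cspg4, the proteoglycan NG2 of pericytes, was at 0.67, 0.37 and 0.31 on op/op arrays, -0.41, -0.46 and -0.22 on WT arrays, -1.96, -1.04 and -1.78 on M1 arrays and -1.30, -1.68 and -0.88 on M2 arrays, with every kidney array above every marrow array (1.48 ± 0.19, adjusted p = 1.63e-05). Of the receptors, Pdgfrb, the receptor of pericytes, was at 2.11, 2.89 and 2.87 on op/op arrays, 2.69, 1.84 and 2.69 on WT arrays, 1.96, 2.11 and 1.86 on M1 arrays and 0.14, 0.32 and 0.25 on M2 arrays (1.41 ± 0.19, adjusted p = 2.68e-05). Pdgfra, the receptor of fibroblasts, was at -2.95, -1.58 and -1.68 on op/op arrays, -1.93, -2.61 and -1.93 on WT arrays, -1.36, -1.19 and -1.09 on M1 arrays and -2.11, -1.61 and -1.13 on M2 arrays, and its call in the lower direction (-0.70 ± 0.26, adjusted p = 0.0253) was lost with slide as a random block (adjusted p = 0.251).

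Markers of fibroblasts and mesenchymal cells (13 genes), a list that holds none of the 40 genes, went both ways, with 12 of 19 tested probes lower and 6 higher in kidney. Of the 5 well above background on all 12 arrays, 2 were lower and 3 higher (median 0.79). Their summed linear signal was 2.94 to 3.52 on op/op arrays, 2.81 to 4.39 on WT arrays, 10.03 to 10.98 on M1 arrays and 4.48 to 5.55 on M2 arrays. Prrx1, a fibroblast transcription factor, was not well above background on any kidney array, and Foxd1 on no marrow array. Tubule markers (8 genes) summed to 26.4 to 76.3 on op/op arrays, 74.1 to 161 on WT arrays, 1.66 to 1.92 on M1 and 1.12 to 1.23 on M2 arrays. Endothelial markers (8 genes) summed to 26.3 to 52.6 on op/op arrays, 21.4 to 35.9 on WT arrays, 4.30 to 5.45 on M1 arrays and 2.43 to 2.93 on M2 arrays. Smooth muscle and pericyte markers (7 genes) summed to 11.4 to 16.0 on op/op arrays, 11.7 to 23.5 on WT arrays, 3.41 to 5.77 on M1 arrays and 5.96 to 6.90 on M2 arrays. Of their 6 tested probes 5 were higher in kidney and 1 lower, while Acta2 and Tagln were lower, and Rgs5 was above background on no marrow array. Their part in the result was not tested. Enzymes and chaperones that process collagen, 15 genes, had 17 of 21 tested probes lower in kidney and 1 higher, with Adamts2, which cleaves procollagen, at -3.48 ± 0.17 on its leading probe. Of 24 tested probes of 16 other matrix glycoprotein genes, 13 were lower and 4 higher, with Fn1, fibronectin, at -3.43 ± 0.22. For every list in this paragraph, the shares over all tested probes were 46.9% higher and 32.8% lower.

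**Figure D2:**
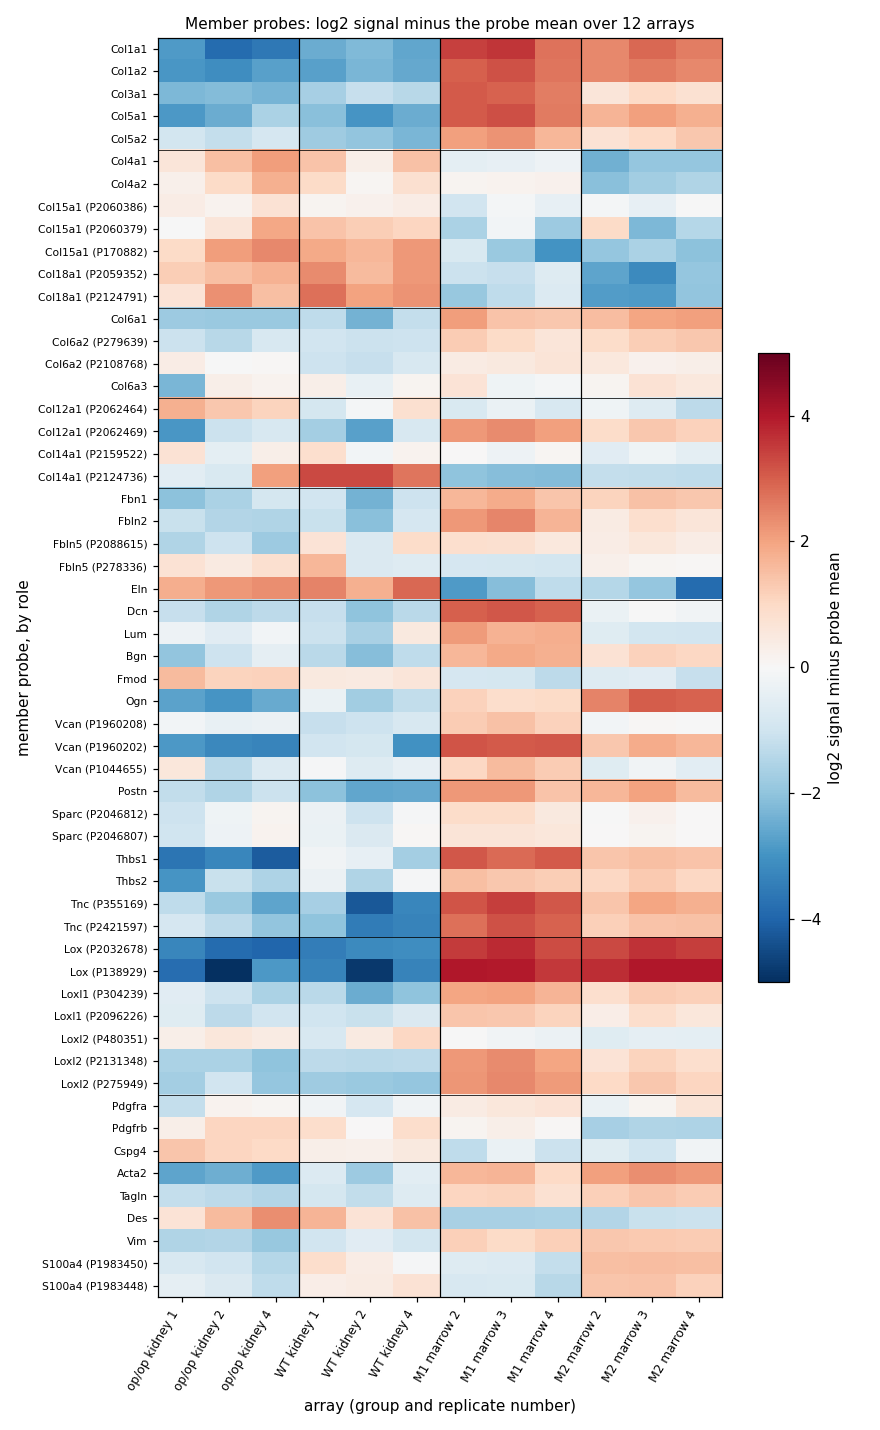
Log2 signal of the 56 member probes minus the probe's mean over 12 arrays (colour), on the arrays of op/op kidney, WT kidney, M1 and M2, with probes grouped by role. The collagen I, III and V rows and the Lox rows are blue on all kidney arrays and red on all marrow arrays, and the Eln row is the reverse.

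The second comparison sets M1 against M2 cultures. Dcn, Lum, 4 of 5 fibrillar collagen genes, 3 of 4 basement membrane collagen genes and Pdgfrb were higher in M1 (Col18a1 among them turned to -0.42 with a floor set on each array, and the call of Col1a2 remained in 1 of the 6 fits that left out an array), and S100a4, Ogn, Acta2 and Des were lower. Of 50 tested probes of 39 genes, 26 were called higher in M1 (52.0%) and 5 lower (10%), against 17% and 20.1% of all 39267 tested probes. The median difference was 0.51, and -0.02 over all tested probes. Fibroblast and mesenchymal markers moved with this rise, with 8 of 18 tested probes higher and 0 lower in M1 and the sums given above, and their part in the result was not tested. Of the 46 probes well above background on all 6 arrays, 24 were higher and 4 lower. In a fit of only such probes, 5568 of all 33467 were higher and 8147 lower. With all 12 arrays in the fit, 21 of the 31 calls remained.

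Dcn rose (3.19 ± 0.11, adjusted p = 8.18e-06), with every M1 array above every M2 array. Lum, a related proteoglycan, was at -2.99, -3.39 and -3.31 on M1 and not above background on M2 arrays, at least 1.62-fold higher in M1, although its difference turned to -0.11 with a floor set on each array. Col3a1 rose (2.08 ± 0.17, adjusted p = 0.000199), as did Col4a2 (1.96 ± 0.16, adjusted p = 0.000203), Pdgfrb (1.74 ± 0.10, adjusted p = 5.84e-05) and Col4a1 (1.71 ± 0.16, adjusted p = 0.00035). Thbs1 rose (1.57 ± 0.11, adjusted p = 9.56e-05), and both Tnc probes rose (1.53 ± 0.18 and 1.60 ± 0.14). All 3 Vcan probes rose, between 1.32 and 1.73. Bgn (0.80 ± 0.14, adjusted p = 0.00468) and Sparc (0.71 ± 0.14, adjusted p = 0.00922) rose by less. The cross-linking enzymes Loxl1 (0.79 ± 0.15, adjusted p = 0.00693) and Loxl2 (1.29 ± 0.15 on the probe printed above) rose, as did Fbln2 (1.49 ± 0.22, adjusted p = 0.00236). On its brightest probe Loxl2 rose by less (0.36 ± 0.11, adjusted p = 0.0394), and that call remained in 1 of the 6 fits that left out an array.

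A few genes ran the other way. S100a4 was at 3.20, 3.15 and 2.67 on M1 arrays and 5.34, 5.38 and 5.34 on M2 arrays, and both of its probes fell (-2.35 ± 0.15 and -2.29 ± 0.18, adjusted p = 8.81e-05 and 0.000213). Ogn (-1.82 ± 0.17, adjusted p = 0.000375), Acta2 (-0.73 ± 0.21, adjusted p = 0.033) and Des (-0.41 ± 0.12, adjusted p = 0.0422) fell. The Acta2 call remained in 2 and the Des call in 1 of the 6 fits that left out an array. Col1a1, Lox, Postn, Col6a1, Pdgfra and Vim were not called, and Lox differed by 0.04 ± 0.15, adjusted p = 0.846. Enzymes and chaperones of collagen had 16 of 21 tested probes higher in M1 and 2 lower, against 17% higher and 20.1% lower over all tested probes.

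**Figure D3:**
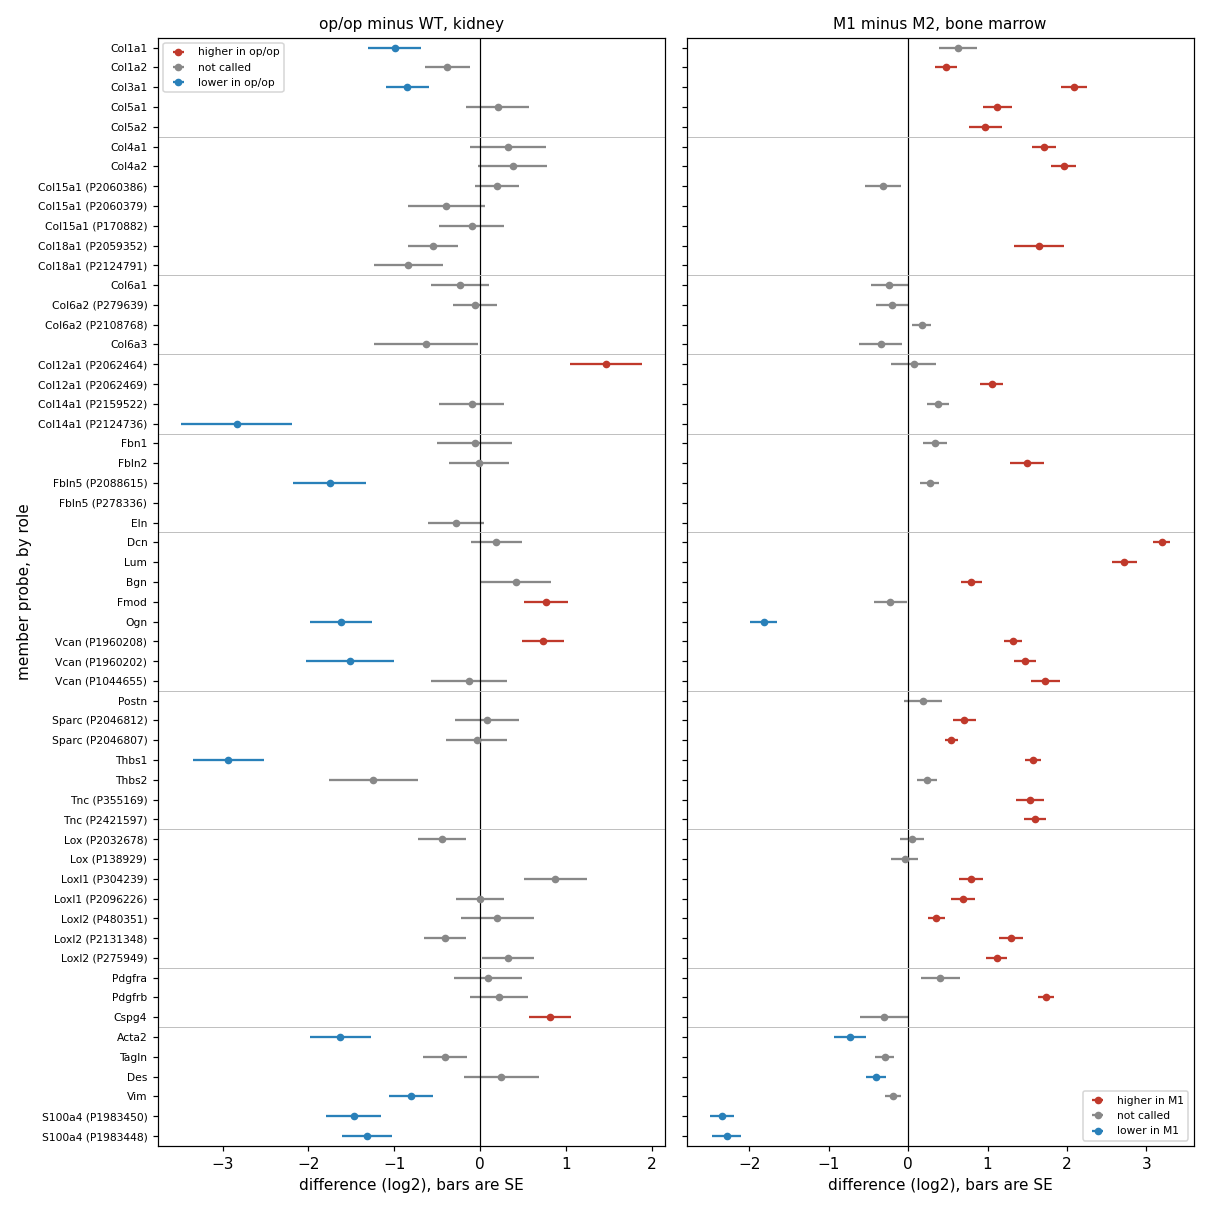
Differences (log2, horizontal axis) of member probes between op/op and WT kidney cells on the left and between M1 and M2 cultures on the right, with bars for the SE of the limma fit. Red points were called higher in op/op or M1, blue points lower and grey points were not called, and rows without a point were not tested. Dcn lies at 3.19 on the right and Thbs1 at -2.93 on the left.

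The last comparison sets op/op against WT kidney cells. Thbs1, Fbln5, Acta2, S100a4, Ogn, Col1a1, Col3a1, Vim and a probe of Col14a1 were lower in op/op, and Cspg4, Fmod and a probe of Col12a1 were higher, while 1 Vcan probe was called lower and another higher, but every call except that of Thbs1 was lost in at least 1 of 6 fits that left out an array. Of 47 tested probes of 36 genes, 4 were called higher (8.51%) and 11 lower (23.4%), against 17.3% and 16.5% of all 40620 tested probes. Both shares lie nearer to the background than in the other comparisons. Among the 33 probes well above background on all kidney arrays, 4 were higher and 8 lower. In a fit of only such probes, 8658 of all 32376 were higher and 5936 lower. The other member probes passed because at least 1 group was bright enough, which fixes part of their direction. The median was -0.10 over the members and 0.11 over all tested probes. With normexp background correction all calls split into 10081 higher and 6197 lower, and with quantile normalisation into 5204 higher and 7358 lower, against 7037 higher and 6682 lower. The 4 calls higher became 0 calls when slide was a term, and 6 of the 15 calls remained. The slide term fits WT replicate 1 exactly, since that array was alone on its slide, so leaving it out is not a separate check. Without WT replicate 1, 6 remained. Without op/op replicate 1 there were 2, without op/op replicate 2 there were 7, without op/op replicate 4 and without WT replicate 2 there were 4 each, and without WT replicate 4 there were 15. All 15 kept their sign in each of these fits.

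Thbs1 differed by -2.93 ± 0.41, adjusted p = 0.00777. Every op/op array lay below every WT array, and the call remained in all 6 fits that left out an array. It also remained with slide as a term (adjusted p = 0.0225), which here gives the same estimate as leaving out WT replicate 1. Acta2 differed by -1.63 ± 0.35, adjusted p = 0.02, with all op/op arrays below all WT arrays. S100a4 differed on both probes (-1.47 ± 0.32 and -1.31 ± 0.29), with all op/op arrays below all WT arrays. Its brightest probe was at 3.06, 2.88 and 2.41 on op/op arrays and 4.75, 4.22 and 3.81 on WT arrays. Fbln5, a fibulin of elastic fibres, was at -2.23, -1.78 and -2.56 on op/op arrays and -0.05, -1.44 and 0.19 on WT arrays (-1.75 ± 0.43, adjusted p = 0.0243). Its call was lost with slide as a term (adjusted p = 0.0577). Col14a1, a fibril-associated collagen, was called on 1 of 2 probes (-2.84 ± 0.65, adjusted p = 0.0216). That probe was well above background on 1 op/op array. Its difference became -0.79 with a floor set on each array and -0.54 with normexp background correction, and its call was lost with slide as a term (adjusted p = 0.0512). Ogn was called (-1.62 ± 0.36, adjusted p = 0.0209), but no op/op array had it above background, so no fold is given, and its difference turned to 0.88 with a floor set on each array.

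Col1a1 (-0.99 ± 0.31, adjusted p = 0.0395), Col3a1 (-0.85 ± 0.25, adjusted p = 0.0348) and Vim (-0.81 ± 0.26, adjusted p = 0.0416) fell by less. With normexp background correction, Col1a1 (-0.34, adjusted p = 0.178) and Col3a1 (-0.30, adjusted p = 0.181) were not called. The calls of Col1a1 (adjusted p = 0.0691) and Vim (adjusted p = 0.0584) were lost with slide as a term. Of the 6 fits that left out an array, the Col1a1 and Vim calls each remained in 1 and the Col3a1 call in 2. Col12a1 was higher on its brightest probe (1.47 ± 0.42, adjusted p = 0.032), and so was Cspg4 (0.82 ± 0.25, adjusted p = 0.0366), whose op/op arrays all lay above the WT arrays. Fmod (0.77 ± 0.26, adjusted p = 0.0452) was higher too. The calls of Col12a1, Cspg4 and Fmod, and those of the called Vcan probes, each remained in 1 of the 6 fits that left out an array. Vcan disagreed between probes, with the brightest higher (0.73 ± 0.24, adjusted p = 0.0456) and another lower (-1.52 ± 0.52, adjusted p = 0.0487), whose op/op arrays were not above background (0.15 with a floor set on each array). The differences of Cspg4, Fmod and the brightest Vcan probe lay below 0.90, the median of the olfactory receptor probes. The part of such an offset was not tested. Dcn, Bgn, Sparc, Col4a1, Col4a2, Eln, Lox, Pdgfra and Pdgfrb were not called. Col4a1 differed by 0.33 ± 0.44, adjusted p = 0.548 and Lox by -0.44 ± 0.28, adjusted p = 0.214.

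Macrophage markers (10 genes) summed to 21.3 to 23.1 on op/op arrays and 49.6 to 103 on WT arrays, beside these differences. Of their 18 tested probes, 12 were lower and 0 higher in op/op, and of 11 tested probes of the tubule markers 7 were lower and 1 higher. Fibroblast and mesenchymal markers had 5 of 13 tested probes lower and 1 higher in op/op. Among the 7 well above background on all kidney arrays, 1 was lower and 1 higher (median 0.20). Olfactory receptor genes, a set outside the members, had 213 probes above background on every array. Their median difference was 0.90 between op/op and WT, 0.01 between M1 and M2 and 1.35 between kidney and bone marrow. Their part in the result was not tested. Enzymes and chaperones of collagen had 3 of 20 tested probes higher in op/op and 2 lower, and of 23 probes of other matrix glycoproteins 3 were higher and 2 lower, with Fn1 at -2.27 ± 0.37.

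**Figure D4:**
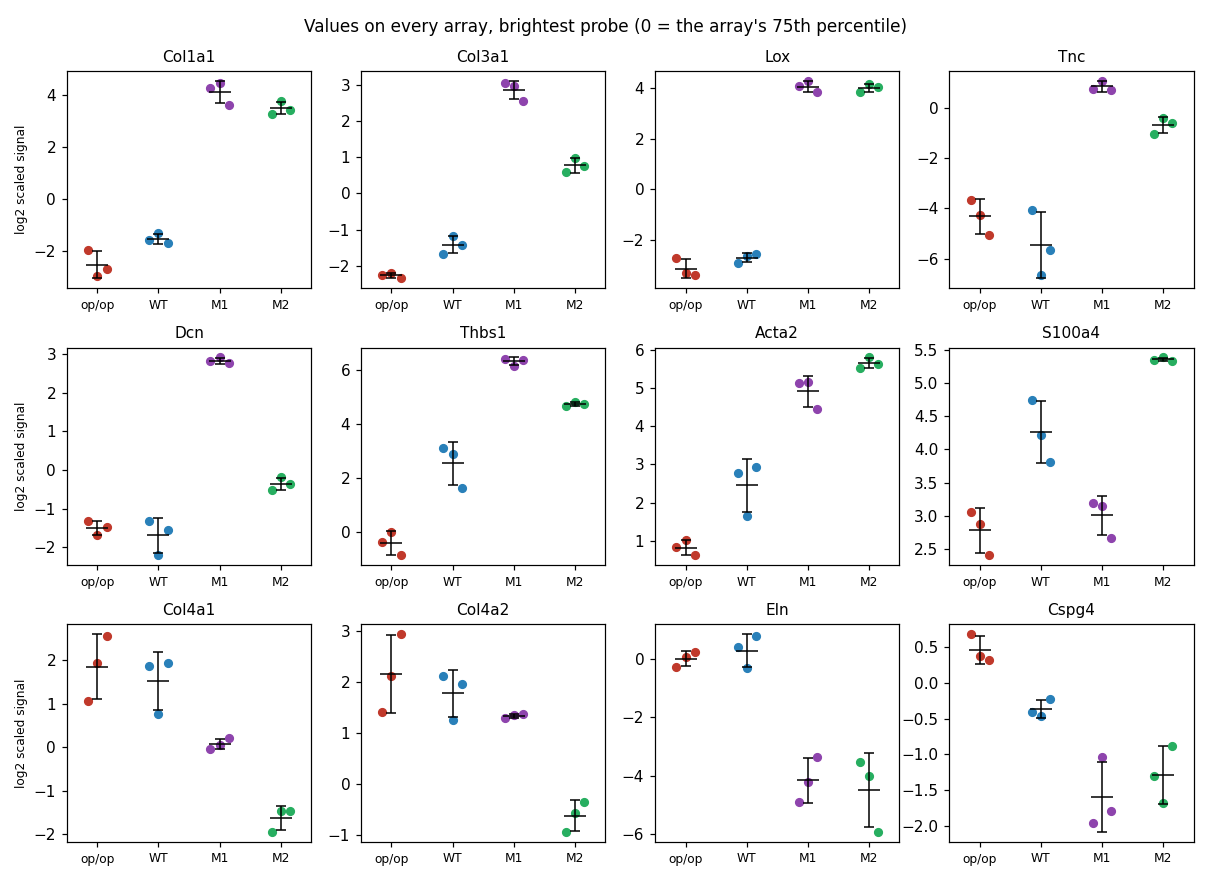
Scaled log2 signal (vertical axis, 0 is the 75th percentile of the array) of 12 genes on their brightest probe, for op/op kidney, WT kidney, M1 and M2 (points are arrays, bars the mean and SD, n = 3). Thbs1, Acta2 and S100a4 are lower in op/op than in WT on every array, and Dcn is at 2.83 ± 0.08 in M1 and -0.36 ± 0.16 in M2.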

How the data were processed

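Per the labels' protocols, total RNA (RNeasy Micro) was turned into amplified cDNA (Ovation PicoSL WTA V2) and labelled with Cy3. Agilent Feature Extraction 10.7.3.1, named in the submitters' processing notes, made the deposited spot intensity values, background-subtracted per the file headers. The deposited value table holds log2 values that ran parallel to the scanner signals (r = 1.0) and served as an alternative.

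Marked spots were left out (30 of 55681 probes lost), spots of a probe were averaged, and log2 signals were scaled to each array's 75th percentile. Tested probes were those marked above background throughout at least 1 of the compared groups. limma 3.58.1 in R 4.3.3 (lmFit, eBayes; statmod 1.5.0) was fitted on the 6 kidney arrays, on the 6 bone marrow arrays, or on all 12 for kidney minus bone marrow. Where no array of a group had a probe above background, the fold is a bound, against the higher of each array's lowest signal well above background and its own. Tables were made in pandas 2.3.3 and numpy 2.4.6 under Python 3.11.15, and figures in matplotlib 3.10.9.

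Values on every array are given for the 8 called members with the largest difference per comparison, up to 4 called in the opposite direction, and a fixed set of genes. They can be left out for a group in which no array was above background. Of other lists, up to 4 genes with the smallest p are named. The members and lists were chosen with earlier results of these data known. On simulated data with 200 probes changed, 4-fold changes were recovered for 43% (op/op minus WT), 85% (M1 minus M2) and 91% (kidney minus bone marrow), and 2-fold changes for 1%, 66% and 53%. In the data far more probes were called (13719 of 40620 in op/op minus WT). The adjusted p cutoff was therefore stricter in the simulation, and these shares do not give the recovery in the data. The number of arrays limits the precision. No genome was used; probe coordinates are the files' (mm9).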

Additional observations from a re-analysis of the deposited data

How the results depend on the processing

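Leaving out each array in turn gave 0 to 4 member probes called higher and 2 to 11 called lower in op/op minus WT (4 and 11 with all arrays), and 3 to 4 called lower in M1 minus M2 (5 with all arrays). In op/op minus WT, 1 probe was called higher at a threshold of at least 2-fold, 8 with the per-array floor, 7 with array weights and 0 with slide as a term. Called lower were 7 with normexp background correction, 7 with no filter and 6 with slide as a term. In M1 minus M2, 3 probes were called lower at least 2-fold, 3 with all 12 arrays in the fit and 3 with the common floor. In kidney minus bone marrow a filter on every array left 8 higher (15 otherwise) and 20 lower (37 otherwise), because fewer probes were tested.

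The planned floor was set on each array at the 10th percentile of its signals above background. It turned the sign of 9 of 47 tested probes in op/op minus WT, 3 of 50 in M1 minus M2 and 2 of 55 in kidney minus bone marrow. Those called with or without it were Col14a1 (0.94), Ogn (0.88) and 2 Vcan probes (0.15 and 0.71) in op/op minus WT, Col18a1 (-0.42), Col14a1 (-0.78) and Lum (-0.11) in M1 minus M2, and Col6a2 (0.011) and Lum (0.12) in kidney minus bone marrow. The floors differ between arrays, and these probes were near or below background in at least 1 group. A common floor over all 12 arrays, added after those reversals had been seen, turned no called sign, so it is not independent of them; 11 of 15, 26 of 31 and 50 of 52 calls remained with it. Normexp background correction turned 10 signs in op/op minus WT and 1 in M1 minus M2, all of probes not called, and 3 in kidney minus bone marrow, of which Col6a2 (0.030) and Lum (0.17) had been called. The cause was not tested.

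Deviations of same-numbered samples correlated at -0.14, 0.08 and -0.06 for op/op and WT, and at -0.05, 0.12 and 0.08 for M1 and M2. Differently numbered pairs ran from -0.24 to 0.27 for op/op and WT and from -0.19 to 0.11 for M1 and M2. With 3 samples per group these values cannot show whether the numbers pair the samples. With a replicate block, 0 probes were called higher in op/op minus WT, and 8 of 15, 29 of 31 and 49 of 52 calls remained in the 3 comparisons.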

Other observations

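Markers of the bone and fat lineages, 7 genes outside the 40, went both ways in 2 of the comparisons. Between kidney and bone marrow, 4 of 10 tested probes were higher and 4 lower (40% each), against 46.9% and 32.8% of all tested probes. Between M1 and M2, 2 were higher and 2 lower (20% each), against 17% and 20.1%. Between op/op and WT, 3 were higher and 0 lower (30% and 0%), against 17.3% and 16.5%. Pparg, the transcription factor of fat cells and of alternatively activated macrophages, was lower in M1 than in M2 (-3.68 ± 0.16, limma adjusted p = 1.85e-05) and lower in kidney than in bone marrow (-2.13 ± 0.17). Alpl, alkaline phosphatase, was above background on no M2 array and was higher in kidney than in bone marrow (4.97 ± 0.19). Of the smooth muscle and pericyte markers, Rgs5 was at least 45.3-fold higher (24.7-fold against the 10th percentile of signals above background) in kidney than in bone marrow, where no array had it above background, and lower in op/op than in WT kidney cells (-1.38 ± 0.40), and Myh11, smooth muscle myosin, was also lower in op/op (-1.46 ± 0.29).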
